A study of Homo sapiens with 16 samples.

Results

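The genes described here are 39 interferon-stimulated genes, genes that cells switch on when they sense a virus or foreign nucleic acid. They were taken by name from the annotation of the array, and the brightest probe set of each, by its mean over the 16 arrays, stood for the gene. Of the 39 genes, 38 had a probe set that carries their symbol alone, out of 19775 genes measured this way; STAT2 was not analysed here. The 38 genes had 64 probe sets in all, and 20 of them had more than 1. The question was whether transfection with plasmids raised an interferon response.

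The cells were SAOS, an osteosarcoma line of human origin without working RB (retinoblastoma protein, which restrains entry into S phase). Group 1 was the control, wild type and without transfection. The other groups were transiently transfected with human RB, with mouse SMYD2 (a lysine methyltransferase), or with RB plus SMYD2. Each group had 4 arrays of the Affymetrix Human Genome U133 Plus 2.0 design, which carry the replicate numbers 1, 3, 4 and 5. The labels name no group given an empty vector, a transfection reagent alone or an interferon. A difference from the control therefore mixes the act of transfection with the protein expressed, and these cannot be told apart there. The comparisons between transfected groups have transfection on both sides. The load of plasmid may still differ where RB plus SMYD2 is set against RB or SMYD2 alone. The labels do not say whether arrays of a group came from separate cultures, and p-values then describe array-to-array spread that may be technical.

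Type I interferons bind a receptor whose kinases activate a complex of STAT proteins with IRF9. This complex binds the interferon-stimulated response element, a short DNA motif of repeated GAAA, in the promoters of its target genes. Foreign DNA in the cytoplasm can start the pathway through the sensor cGAS and its partner STING, and RNA through RIG-I and MDA5. The target genes encode RNA-binding proteins that block translation, enzymes that trigger RNA decay, membrane proteins that block viral entry or release, and the ubiquitin-like protein ISG15.

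The motif was searched in promoter sequences from RefSeq on GRCh38.p14, windows of 300 bases that run from 250 before to 50 after a start. The letters searched were GAAANNGAAA on both strands, where N is any base, and matches that overlap were all kept. An entry was found for 30 of the 38 genes, and 22 of the 30 (73.3%) held a match. Counted by promoter, 26 of 39 entries (66.7%) held one, against 1255 of 35116 promoters (3.57%) in the whole table. The 8 genes with an entry and no match were HERC6, IFI16, IFI35, IRF1, IRF9, OAS1, SAMD9L and XAF1. IFIT2, IFITM2, IRF7, MX2, OAS2, OASL, TRIM22 and USP18 had no entry. A match describes the letters only and is not a measured binding site.

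The sequences below are shown because they come from the genes on which the results turn: 2 textbook targets, 4 genes that passed a test and 2 members of the IFITM family. Capitals mark the motif, and where a gene has TTTC in place of GAAA the match lies on the opposite strand. All lie upstream of the start.
ISG15, chr1:1013374-1013409, plus strand: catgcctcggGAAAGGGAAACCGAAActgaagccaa
IFIT1, chr10:89392497-89392539, plus strand: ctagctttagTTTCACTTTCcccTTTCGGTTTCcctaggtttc
IFI6, chr1:27672266-27672358, minus strand: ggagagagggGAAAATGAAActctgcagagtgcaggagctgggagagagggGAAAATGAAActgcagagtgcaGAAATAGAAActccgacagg
OAS3, chr12:112938321-112938350, plus strand: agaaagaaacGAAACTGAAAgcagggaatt
IFI44, chr1:78649761-78649788, plus strand: gcacactgagTTTCAGTTTCctttctct
PARP14, chr3:122680800-122680829, plus strand: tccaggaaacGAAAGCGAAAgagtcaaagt
IFITM1, chr11:313990-314019, plus strand: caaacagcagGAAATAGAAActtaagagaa
IFITM3, chr11:320876-320922, minus strand: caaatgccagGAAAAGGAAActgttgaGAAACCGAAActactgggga

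The deposited values are log2 signals made with RMA, in which a step of 1 is a 2-fold change. RMA keeps no detection call, and signals of different probe sets are not set against each other here. Over the 16 arrays, 6 of the genes had a mean below 5 (IFI44L, IFIH1, OAS1, RSAD2, XAF1 and TRIM22), 15 lay from 5 to under 8, and 17 were at 8 or above. Array medians ran from 5.59 to 5.64, and arrays of the same group correlated at 0.981 to 0.998. RB1 checked the RB labels. It read 6.48 ± 0.32 (SD, n = 4) in control, 7.70 ± 0.34 with RB, 6.85 ± 0.17 with SMYD2 and 8.67 ± 0.90 with RB plus SMYD2, and the arrays with and without an RB plasmid did not overlap. Human SMYD2 read 10.16 ± 0.05 in control and 10.28 ± 0.07 on the SMYD2 arrays, and its adjusted p was 0.991 in limma; the expressed protein was of mouse, so it does not check that label. The log2 difference between 3' and 5' probe sets of ACTB, a sign of RNA quality, was 3.53 on SMYD2 array 1 and 2.46 on control array 1, against 0.54 to 1.63 on the other arrays. The same difference of GAPDH was 0.16 on SMYD2 array 1 and 0.06 on control array 1, against -0.01 to 0.10 on the other arrays. By GAPDH, control array 1 thus did not stand apart.

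No broad rise of the interferon-stimulated genes was found after transfection. Under RB plus SMYD2, 1 gene rose and 3 fell: IRF9 was higher, and OAS3, IFI44 and PARP14 were lower. With RB alone 0 of 38 genes passed, and with SMYD2 alone 0 of 38. Over the mean of the 3 transfected groups 0 of 38 passed. A gene passed when limma's p, adjusted over all 19775 genes by the Benjamini-Hochberg method, was under 0.05. These counts come from the fit that does not pair arrays by replicate number. With the replicate number as a block, 3 genes rose and 1 fell with RB, where 7.07% of all genes passed. In that fit 4 rose and 3 fell with RB plus SMYD2, where 13.0% of all genes passed. The shares that follow are from the fit without the block. Among all genes the share that passed was 2.96% for RB, 0% for SMYD2, 7.20% for RB plus SMYD2 and 2.50% for the mean of the 3 groups. By direction, 3.00% of all genes were higher and 4.20% lower with RB plus SMYD2. These comparisons share the 4 control arrays.

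**Figure D1:**
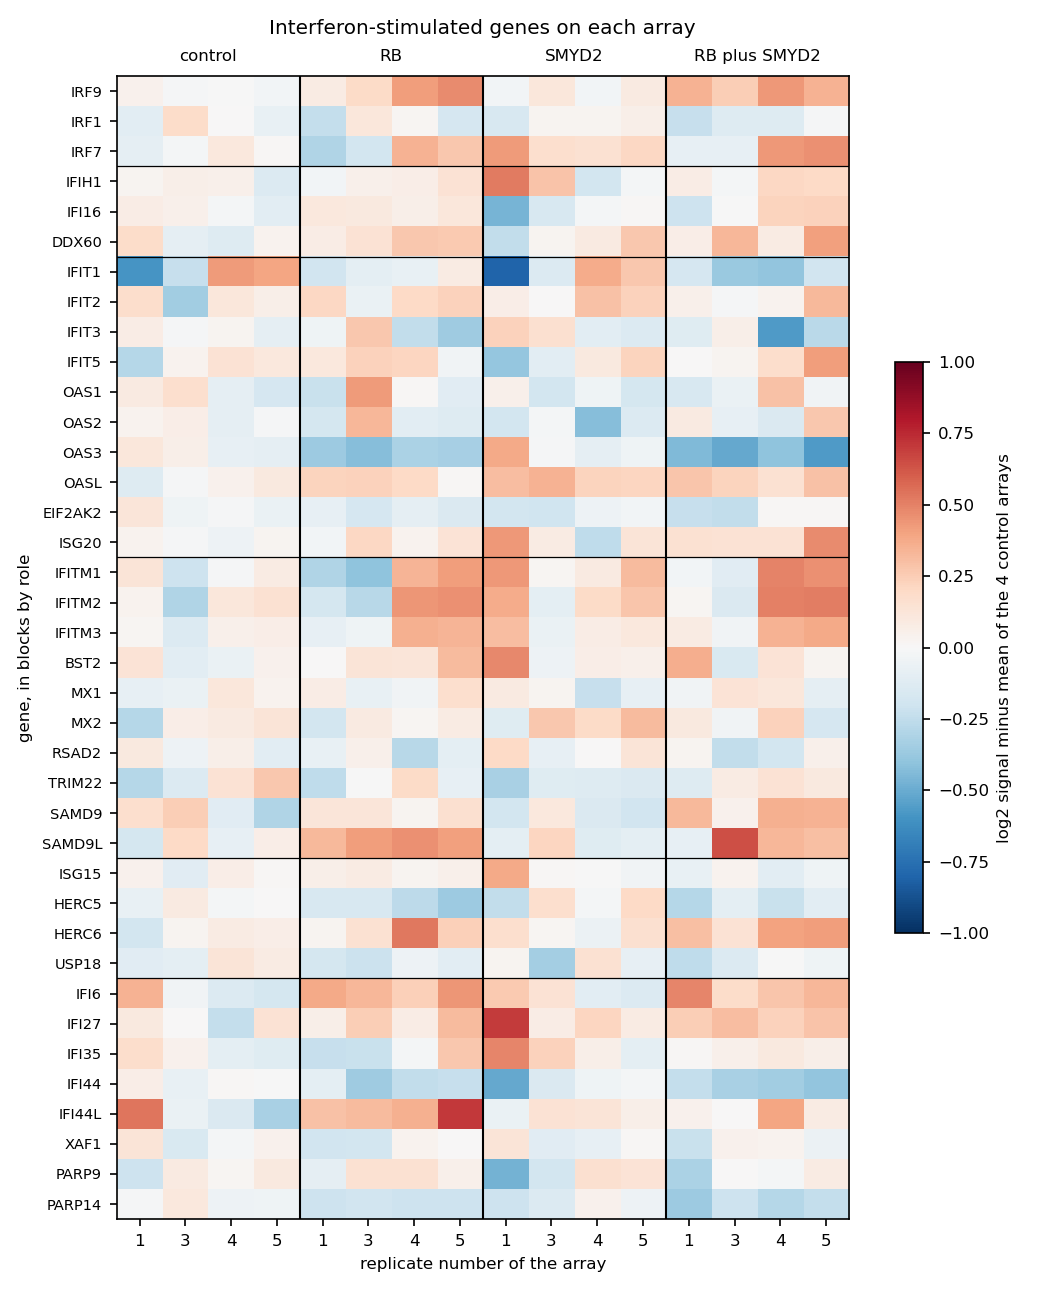
Each row is an interferon-stimulated gene, in blocks by role, and each column an array, labelled by replicate number within its group. Colour gives the log2 signal minus the mean of the 4 control arrays of that gene, from -1 (blue) to 1 (red). No block of rows turns red in a transfected group, and the colours of the IFITM genes and of IFIT1 differ between replicate numbers within a group.

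At an unadjusted p under 0.05, 6 genes were higher and 4 lower with RB, where 13.1% of all genes met that mark. With SMYD2, 2 genes were higher (OASL and IFI27) and 0 lower, where 2.89% of all genes met it. For the mean of the 3 groups, 6 were higher and 3 lower, where 12.7% of all genes met it. Under RB plus SMYD2, 7 were higher and 3 lower, where 18.3% of all genes met it. These shares cover both directions. Of all 19775 genes, 1390 were higher and 1210 lower at that mark with RB, and 385 and 187 with SMYD2. For the mean of the 3 groups these were 1338 and 1164, and for RB plus SMYD2 1938 and 1684. With the replicate number as a block, 3 genes rose with RB (IFI6, IRF9 and SAMD9L) and 1 fell (OAS3), where 7.07% of all genes passed. In the same replicate block fit, 4 rose with RB plus SMYD2 (IFI6, HERC6, IRF9 and SAMD9L) and 3 fell (OAS3, IFI44 and PARP14), where 13.0% of all genes passed. That fit called 0 of 38 with SMYD2, where 0% of all genes passed, and OAS3 alone, as lower, for the mean of the 3 groups, where 6.01% passed.

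The median difference of the 38 genes from control was 0.04 with RB, 0.04 with SMYD2 and 0.06 with RB plus SMYD2 on the log2 scale. Over all genes it was 0.01, 0.01 and 0.02. With RB 24 of the 38 genes lay above 0, with SMYD2 22 and with RB plus SMYD2 25. Over all genes the shares above 0 were 51.8%, 54.7% and 56.9%. The mean of the 38 genes on an array was 7.71 ± 0.01 (SD, n = 4) in control, 7.75 ± 0.07 with RB, 7.74 ± 0.02 with SMYD2 and 7.75 ± 0.07 with RB plus SMYD2. The band that holds the middle 90% of all genes took in 33 of the 38 with RB, 32 with SMYD2 and 36 with RB plus SMYD2. Above it lay 4 genes with RB, 5 with SMYD2 and 1 with RB plus SMYD2, and below it 1 in each. For the mean of the 3 groups 31 lay inside, 5 above and 2 below.

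The intervals of the differences, from the fit without the block, bound the mean difference of each gene in bulk RNA. They do not bound a response in a part of the cells or at another time. In each comparison with control the upper end of the 95% interval lay below a 2-fold rise for 38 of 38 genes. It lay below 1.5-fold for 35 genes with RB, 37 with SMYD2, 37 with RB plus SMYD2 and 38 for the mean of the 3 groups. The highest upper end was 0.73 on the log2 scale, or 1.66-fold, for IFI44L with RB. With SMYD2 it was 0.59 for IFITM1, and with RB plus SMYD2 it was 0.60 for IFITM2. The intervals cover the spread between arrays and not what RMA does to low signals, and 4 arrays a group set their width, with a median half-width of 0.24.

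**Figure D2:**
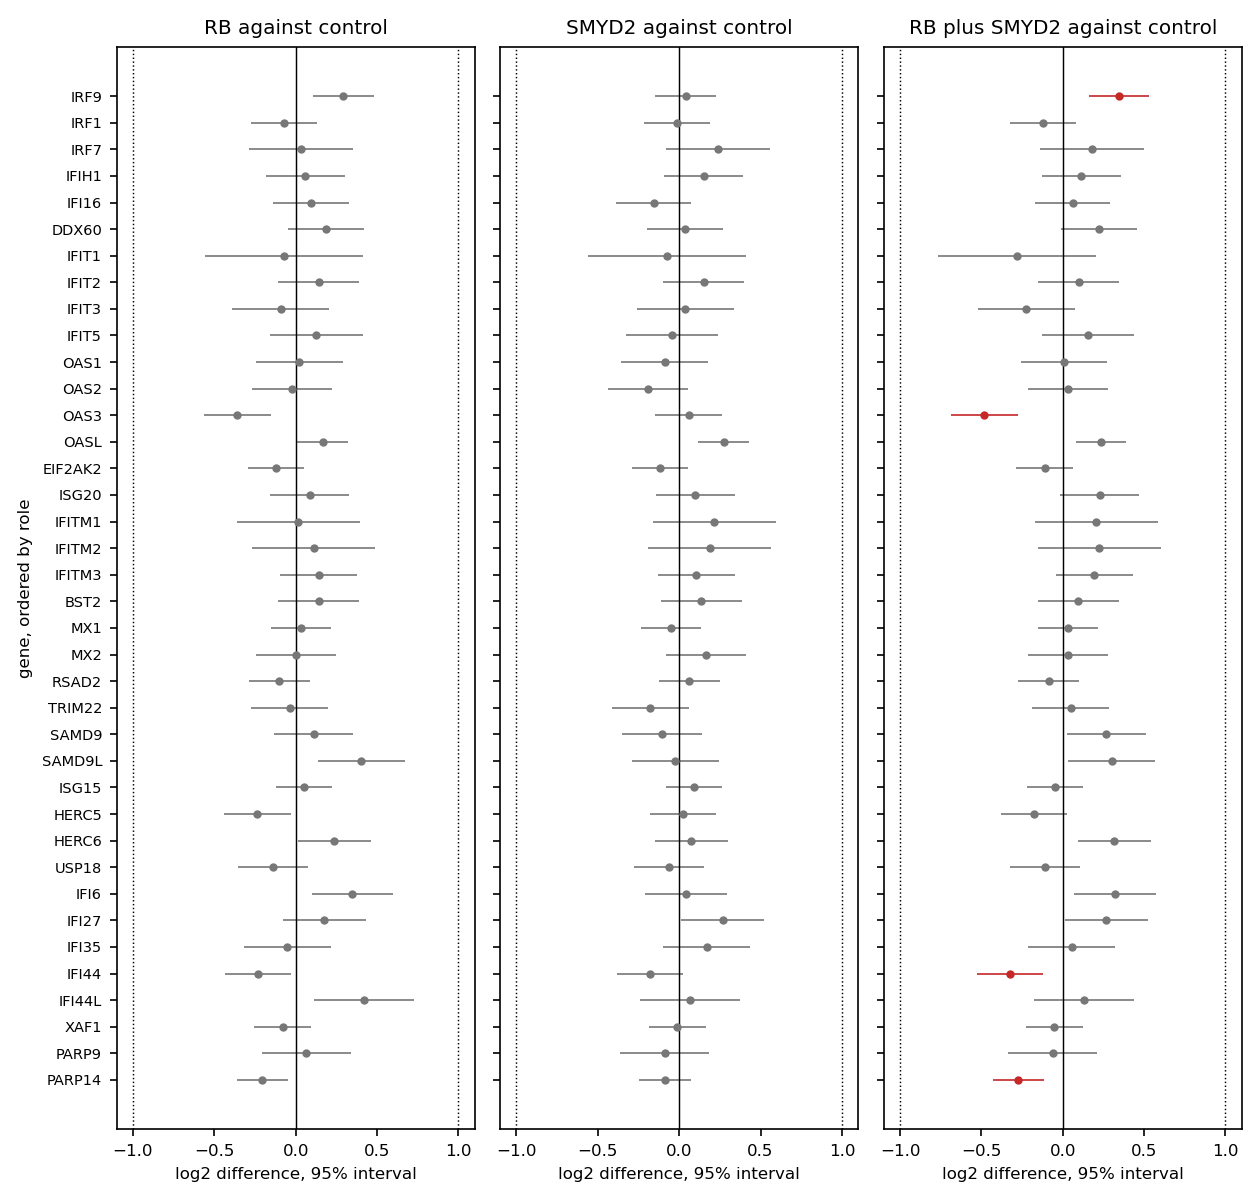
Log2 difference from the 4 control arrays for each interferon-stimulated gene, in 3 panels for RB, SMYD2 and RB plus SMYD2; points are estimates, bars 95% intervals, red those with an adjusted p under 0.05 in limma, and dotted lines mark a 2-fold change. No interval crosses the 2-fold line on the right, and the 4 red points are in the panel for RB plus SMYD2.

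IRF9, the DNA-binding part of the interferon-activated STAT complex, was the transcription factor that rose. It read 9.14, 9.09, 9.10 and 9.07 on control arrays 1, 3, 4 and 5, and 9.45, 9.35, 9.53 and 9.45 with RB plus SMYD2. The groups did not overlap. The difference was 0.35 ± 0.09 (SE), 1.27-fold, with an adjusted p of 0.022 in limma. With RB alone IRF9 read 9.18, 9.29, 9.52 and 9.57, all above control. There the difference was 0.29 ± 0.09, with an adjusted p of 0.097 (0.041 in the replicate block fit). With SMYD2 alone it read 9.07, 9.21, 9.08 and 9.19, which overlaps control, for a difference of 0.04.

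IRF7, which amplifies interferon production, read 6.88, 6.95, 7.08 and 6.98 in control. With SMYD2 it read 7.40, 7.14, 7.12 and 7.18, all above control, but the difference of 0.24 ± 0.15 had an adjusted p of 0.991 in limma. With RB it read 6.67, 6.79, 7.32 and 7.25, below and above control by replicate number. IRF1, an activator induced mainly by interferon gamma, read 8.09 ± 0.13 (SD, n = 4) in control and differed by -0.07 with RB, -0.01 with SMYD2 and -0.12 with RB plus SMYD2.

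Of the sensors, 0 of 3 passed in limma in any comparison with control, and 0 at an unadjusted p under 0.05. IFIH1, which encodes the RNA sensor MDA5, read 4.82 ± 0.09 in control and differed by 0.06, 0.15 and 0.11 with RB, SMYD2 and both. IFI16, a sensor of DNA, read 10.13 ± 0.08 in control and differed by 0.09, -0.16 and 0.06. Its dimmer probe sets differed by 0.09, -0.17 and 0.08, and by -0.25, -0.04 and -0.03. DDX60, a helicase that aids RNA sensing, read 5.95 ± 0.14 in control and differed by 0.19, 0.04 and 0.22.

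Among the RNA-binding and RNA-degrading effectors, OAS3 fell and the other 9 did not pass. OAS3 makes the 2-5A messenger that activates RNase L. It read 8.05, 8.0, 7.85 and 7.85 in control and 7.49, 7.42, 7.54 and 7.37 with RB plus SMYD2. All arrays with both plasmids were below all control arrays. The difference was -0.48 ± 0.10 (SE), a 1.40-fold decrease, with an adjusted p of 0.005 in limma. An exact two-sided permutation test over the arrays gave 0.029, the smallest that 4 against 4 allows. With RB alone OAS3 read 7.58, 7.51, 7.62 and 7.61, again below all control arrays. That difference of -0.36 ± 0.10 had an adjusted p of 0.058 (0.019 in the replicate block fit). With SMYD2 alone it read 8.31, 7.92, 7.85 and 7.89, a difference of 0.06.

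OAS3 has a second, dimmer probe set that did not share the decrease. It read 6.04 in control, 5.95 with RB, 6.18 with SMYD2 and 6.10 with both. With the mean of both probe sets in place of the brighter one, the difference of OAS3 with RB plus SMYD2 was -0.21 and its adjusted p was 0.254 in limma.

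The neighbours of OAS3 in the genome, OAS1 and OAS2, with no protein-coding gene between them, encode enzymes of the same kind. OAS1 read 4.58 ± 0.16 (SD, n = 4) in control and differed by 0.02, -0.09 and 0.01 with RB, SMYD2 and both. OAS2 read 5.54 ± 0.07 and differed by -0.02, -0.19 and 0.03. A dimmer probe set of OAS2 differed by 0.31, 0.07 and 0.32, from 4.81 in control, and the dimmest by 0.03, -0.03 and -0.08. OASL, a related protein without the enzyme activity, read 5.55, 5.67, 5.72 and 5.78 in control and 5.99, 6.03, 5.91 and 5.89 with SMYD2. Its groups did not overlap there, and the difference was 0.27 ± 0.07, but the adjusted p was 0.991 in limma. With RB plus SMYD2 the difference was 0.24 ± 0.07 with an adjusted p of 0.064, and with RB it was 0.17. The dimmer probe set of OASL differed by -0.11, 0.02 and -0.06 with RB, SMYD2 and both.

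The IFIT proteins bind viral RNA and block its translation, and IFIT1 and IFIT3 are among the genes most strongly induced by interferon. IFIT1 read 7.68, 8.04, 8.69 and 8.66 in control, 8.08, 8.17, 8.19 and 8.35 with RB, 7.46, 8.13, 8.64 and 8.53 with SMYD2, and 8.10, 7.90, 7.87 and 8.07 with both. The spread within control and within SMYD2 was larger than any group difference. The differences were -0.07, -0.07 and -0.28, each ± 0.23 (SE). IFIT3 read 8.79 ± 0.07 (SD, n = 4) in control and differed by -0.09, 0.04 and -0.23. IFIT2 differed by 0.14, 0.15 and 0.10, and IFIT5 by 0.13, -0.04 and 0.15. EIF2AK2, the RNA-activated kinase PKR, differed by -0.12, -0.12 and -0.11. ISG20, an exonuclease, differed by 0.09, 0.10 and 0.23.

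The membrane and capsid restriction factors had 0 of 10 genes past the test in any comparison with control. The largest difference was in SAMD9L, a restriction factor of poxviruses. It read 6.39, 6.76, 6.48 and 6.63 in control and 6.89, 6.99, 7.03 and 6.97 with RB, with no overlap. The difference was 0.40 ± 0.13 (SE), with an adjusted p of 0.116 in limma, and 0.013 with the replicate block. With RB plus SMYD2 it read 6.49, 7.21, 6.90 and 6.87, a difference of 0.30, with an adjusted p of 0.205 (0.043 in the replicate block fit). With SMYD2 alone the difference was -0.02. Of the dimmer probe sets of SAMD9L, 1 read 5.05 with RB against 5.19 in control and 1 read 4.96 against 4.76. Its neighbour SAMD9 read 8.03 ± 0.25 (SD, n = 4) in control and 8.29 ± 0.15 with both plasmids, with an adjusted p of 0.217 in limma.

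MX1, a GTPase used as a standard marker of type I interferon, read 6.16, 6.18, 6.36 and 6.28 in control. It read 6.32, 6.17, 6.21 and 6.42 with RB, 6.34, 6.27, 6.02 and 6.16 with SMYD2, and 6.21, 6.38, 6.36 and 6.16 with both. All 4 groups overlapped, and the differences were 0.03, -0.05 and 0.03, each ± 0.09 (SE). MX2 differed by 0.00, 0.16 and 0.03. RSAD2, which encodes viperin, read 4.44 ± 0.10 (SD, n = 4) in control and differed by -0.10, 0.06 and -0.09. BST2, which encodes tetherin, differed by 0.14, 0.14 and 0.09, and TRIM22, a ubiquitin ligase, by -0.04, -0.18 and 0.05.

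IFITM1, IFITM2 and IFITM3 block the fusion of viruses with cell membranes. They lie next to each other in the genome and are similar in sequence, so their probe sets can share targets. IFITM1 read 12.23, 11.90, 12.09 and 12.19 in control, 11.80, 11.70, 12.44 and 12.52 with RB, and 12.08, 11.99, 12.60 and 12.56 with both. It read 12.53, 12.12, 12.19 and 12.41 with SMYD2. The RB groups straddled control, and IFITM1 differed from control by 0.02, 0.22 and 0.21 with RB, SMYD2 and both, each ± 0.18 (SE). IFITM2 differed by 0.11, 0.19 and 0.22, and IFITM3 by 0.14, 0.11 and 0.19.

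The sign of the IFITM1 difference went with the replicate number. RB array 1 lay 0.43 below control array 1 and RB array 3 lay 0.20 below control array 3, as pair differences of -0.43 and -0.20. RB arrays 4 and 5 lay above their control arrays, by 0.35 and 0.34. With both plasmids these pair differences were -0.15, 0.09, 0.51 and 0.38. IRF7 had RB pair differences of -0.21, -0.16, 0.24 and 0.26. IFIT1 ran the other way, with RB pair differences of 0.40, 0.13, -0.50 and -0.31, and 0.42, -0.14, -0.82 and -0.58 with both. With SMYD2 alone the IFITM1 pair differences were 0.31, 0.23, 0.10 and 0.23. A mean over the 4 arrays of a group thus averages over arrays that differ in sign for these genes; which feature of the arrays goes with the number was not tested.

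**Figure D3:**
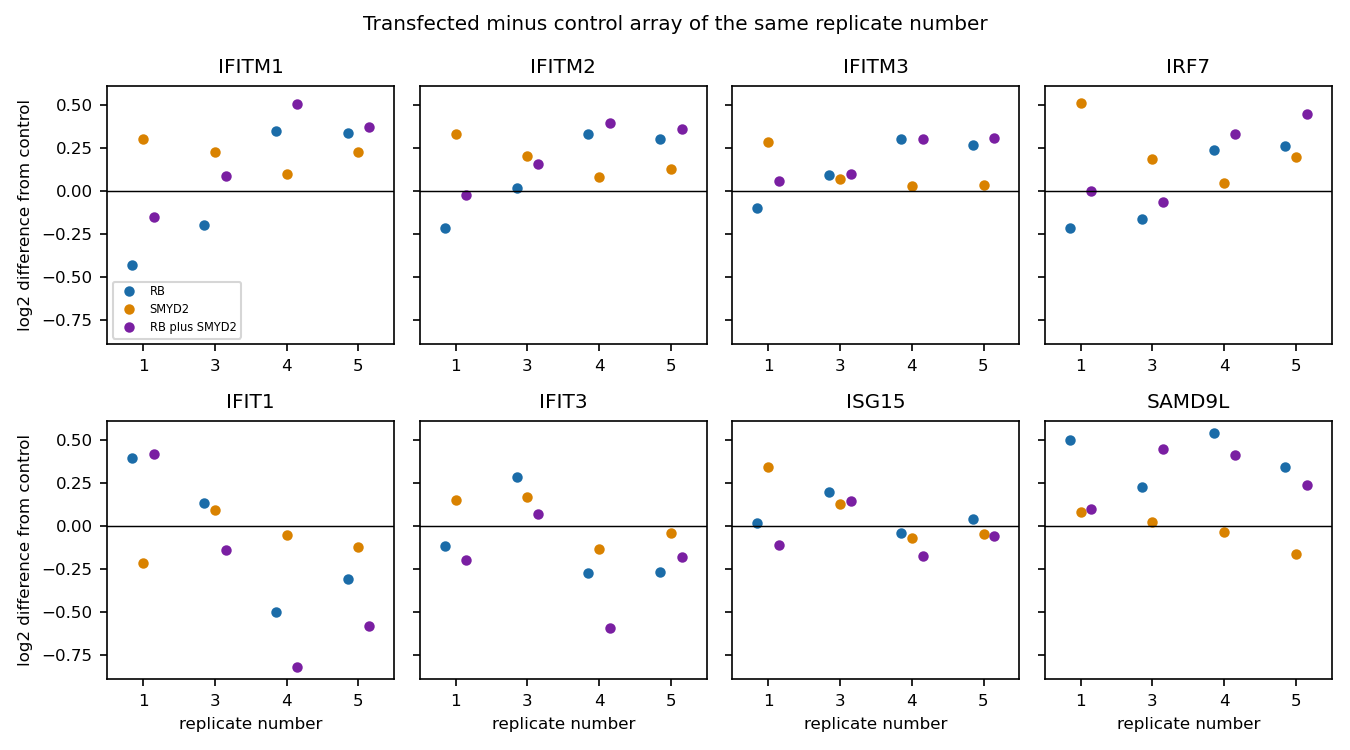
Log2 difference between a transfected array and the control array of the same replicate number, for 8 genes; the x axis gives the replicate number and colours the plasmids. IFITM1, IFITM2, IFITM3 and IRF7 are higher in the RB groups at numbers 4 and 5 than at 1 and 3, IFIT1 is lower there, and SAMD9L is above 0 at all 4 numbers with RB.

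In the ISG15 system 0 of 4 genes passed in any comparison with control. ISG15, the ubiquitin-like protein that is attached to other proteins during the response, read 11.76, 11.60, 11.78 and 11.73 in control and 11.77, 11.80, 11.75 and 11.77 with RB. It read 12.10, 11.73, 11.71 and 11.68 with SMYD2 and 11.64, 11.75, 11.61 and 11.67 with both. SMYD2 array 1, the array with the largest ACTB 3' to 5' difference, was the highest, and the other arrays overlapped. The differences were 0.05, 0.09 and -0.05, each ± 0.08 (SE).

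HERC5, the ligase that attaches ISG15, read 9.43 ± 0.07 (SD, n = 4) in control and 9.20 ± 0.10 with RB, a difference of -0.23 with an adjusted p of 0.276 in limma. Its neighbour HERC6 had the opposite sign. HERC6 read 6.73, 6.94, 6.99 and 6.97 in control and 7.21, 7.05, 7.31 and 7.32 with both plasmids, all above control. That difference was 0.32 ± 0.11 (SE), with an adjusted p of 0.091 (0.044 in the replicate block fit). USP18, the protease that removes ISG15 and dampens the receptor, read 7.21 ± 0.12 in control and differed by -0.14, -0.06 and -0.11.

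Of the other induced proteins, IFI44 and PARP14 fell with RB plus SMYD2. IFI44, whose biochemical role is less well known, read 10.69, 10.55, 10.64 and 10.63 in control and 10.39, 10.30, 10.28 and 10.24 with both plasmids. The groups did not overlap. The difference was -0.33 ± 0.10 (SE), a 1.25-fold decrease, with an adjusted p of 0.049 in limma. With RB alone IFI44 read 10.53, 10.27, 10.39 and 10.40, also below control, with an adjusted p of 0.276. With SMYD2 alone it read 10.12, 10.48, 10.58 and 10.61, which overlaps control. Its second probe set read 8.50 in control and 8.07 with both plasmids. The neighbour IFI44L read 5.09, 4.49, 4.41 and 4.23 in control and 4.85, 4.87, 4.91 and 5.26 with RB. These groups overlapped through control array 1, and the difference of 0.42 ± 0.15 had an adjusted p of 0.166.

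PARP14, a mono-ADP-ribosyltransferase, read 9.27, 9.38, 9.22 and 9.24 in control and 8.91, 9.07, 8.99 and 9.04 with both plasmids. The groups did not overlap. The difference was -0.27 ± 0.07 (SE), a 1.21-fold decrease, with an adjusted p of 0.034 in limma. With RB alone it read 9.07, 9.09, 9.07 and 9.07, below control, with an adjusted p of 0.199. Its dimmer probe set did not share the decrease and read 4.20 in control and 4.29 with both. PARP9, the binding partner of the ubiquitin ligase DTX3L, differed by 0.07, -0.09 and -0.06 with RB, SMYD2 and both. The dimmer probe set of PARP9 differed by -0.16, -0.12 and -0.28, from 8.25 in control.

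IFI6, a small membrane protein that opposes apoptosis, read 9.61, 9.23, 9.12 and 9.09 in control, 9.64, 9.59, 9.50 and 9.71 with RB and 9.75, 9.44, 9.54 and 9.60 with both. Only control array 1 reached the RB groups. The differences were 0.35 and 0.32, each ± 0.12 (SE), with adjusted p of 0.156 and 0.132 in limma (0.024 for both in the replicate block fit). With SMYD2 alone IFI6 differed by 0.04. IFI27, another small membrane protein, read 5.60 ± 0.17 (SD, n = 4) in control and differed by 0.17, 0.27 and 0.27, with adjusted p of 0.625, 0.991 and 0.241. IFI35 differed by -0.05, 0.17 and 0.05, and XAF1, a proapoptotic protein, by -0.08, -0.01 and -0.05.

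**Figure D4:**
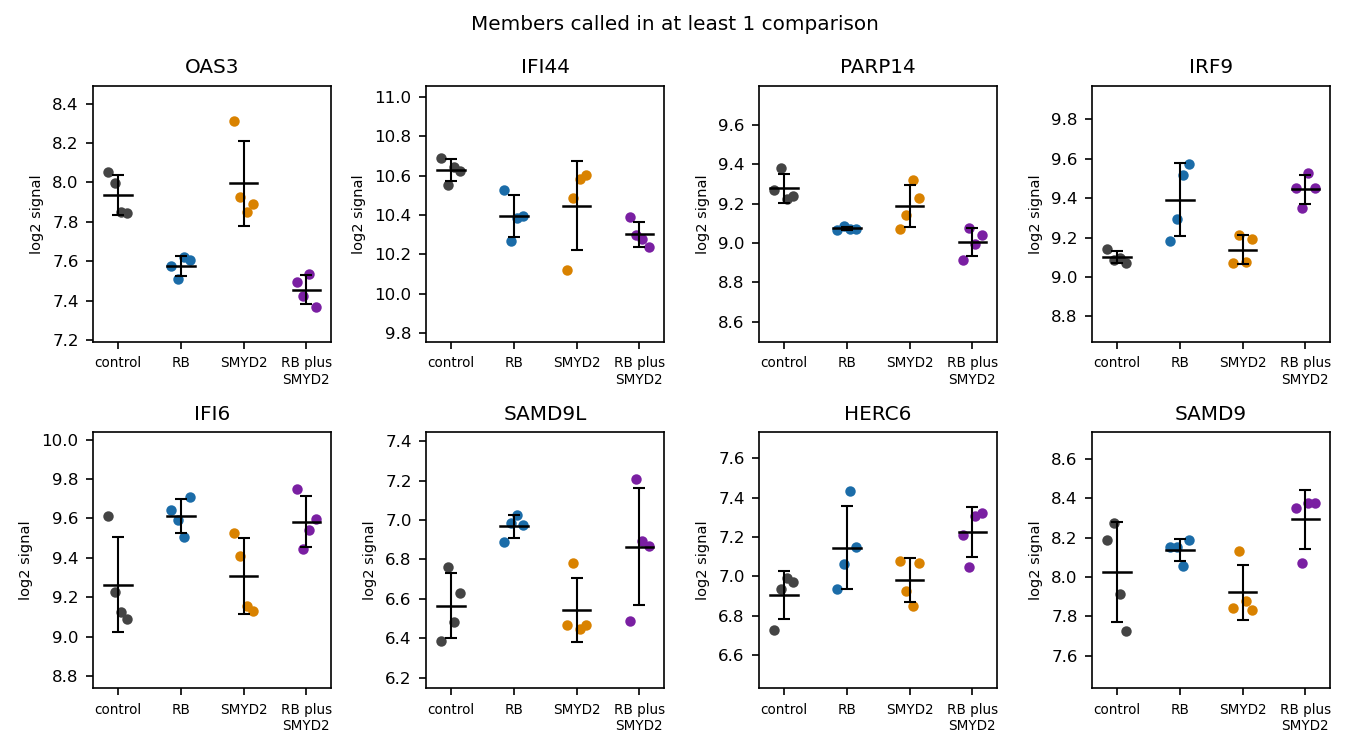
Log2 signal on each array (dots, 4 per group) with the group mean (bar) and SD (whisker) for 8 genes that passed in at least 1 comparison; IFI6, HERC6, SAMD9L and SAMD9 did not pass in the fit without a block and passed with the replicate block. Each axis spans 1.3 log2 units at a different level. The RB and RB plus SMYD2 arrays of OAS3 lie below all control and SMYD2 arrays, and those of IRF9 lie above all control arrays.

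The arrays of the groups did not overlap for 7 genes with RB, 2 higher and 5 lower, where 10.1% of all genes were free of overlap. With SMYD2 these were 2 genes, both higher, against 1.81% of all genes. For RB plus SMYD2 they were 5 higher and 4 lower, against 15.0% of all genes. HERC5, IFI44, OAS3 and PARP14 were the genes lower without overlap both with RB and with RB plus SMYD2.

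With transfection on both sides, RB was set against SMYD2. OAS3 was lower with RB by 0.42 (difference -0.42 ± 0.10 SE, adjusted p 0.024 in limma), and it was the 1 gene of 38 that passed, where 3.25% of all genes passed. Between RB plus SMYD2 and SMYD2, OAS3 was lower (-0.54 ± 0.10, adjusted p 0.002) and IRF9 was higher (0.31 ± 0.09, adjusted p 0.043), where 7.19% of all genes passed. With the replicate block IFI6, SAMD9 and SAMD9L were also higher there, with adjusted p of 0.047, 0.037 and 0.028, where 14.2% of all genes passed. RB plus SMYD2 against RB gave 0 of 38 genes, where limma called 0% of all genes. At an unadjusted p under 0.05 it gave 0 of 38 as well, against 4.33% of all genes. The interaction, the RB difference with SMYD2 minus that without, passed for 0 of 38 in limma, where 0% of all genes passed. At an unadjusted p under 0.05 it gave 0 of 38, against 2.94% of all genes.

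The calls were sensitive to single arrays and to the fit. With RB plus SMYD2 against control, 1 gene passed when control array 3, 4 or 5 or RB plus SMYD2 array 4 or 5 was left out, and 2 passed without RB plus SMYD2 array 1. OAS3 passed in 16 of the 16 fits that leave out an array, IRF9 in 10, PARP14 in 9 and IFI44 in 3. With RB against control, 2 genes passed without control array 1, and 1 passed without RB array 1 or without SMYD2 array 1, the array with the largest ACTB 3' to 5' difference. IFI6 passed with RB and with both plasmids without control array 1, and SAMD9L with both without RB plus SMYD2 array 1. Array weights also called IFI6 in both comparisons, SAMD9L with RB and HERC6 with both.

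The rest of the pathway was read from lists. Of 18 interferon genes measured, 0 passed in limma in any comparison with control. At an unadjusted p under 0.05, 2 were lower with RB, 1 was lower with SMYD2 and 1 was higher with both. Of all genes 13.1%, 2.89% and 18.3% met that mark with RB, SMYD2 and both, in either direction. Between RB plus SMYD2 and SMYD2, 2 of the 18, IFNB1 and IFNL2, were higher in limma, by at most 0.37, where 7.19% of all genes passed. The signal of IFNB1, given next, is too low to be told from background in RMA values. IFNB1, the interferon most cells make first, read 4.42 ± 0.07 (SD, n = 4) in control, 4.43 ± 0.15 with RB, 4.22 ± 0.12 with SMYD2 and 4.57 ± 0.09 with both, and is named for its role. IFNL2, a type III interferon, was higher than control with both plasmids by 0.27 with the replicate block (adjusted p 0.038 in limma). In that fit 13.0% of all genes passed, and without the block the adjusted p of IFNL2 was 0.100. By the largest differences over the 3 groups the genes named were IFNG (-0.19), IFNW1 (-0.13), IFNL1 and IFNA5, none past the test against control.

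Of 12 receptors, kinases and their inhibitors measured, 0 passed in limma, and 0 at an unadjusted p under 0.05 with RB, SMYD2 or both. Of all genes 13.1%, 2.89% and 18.3% met that unadjusted mark. IFNAR1, a chain of the type I receptor, read 8.90 ± 0.18 in control and differed by 0.21, 0.04 and 0.18 with RB, SMYD2 and both. SOCS1, an inhibitor of the kinases that interferon itself induces, read 8.03 ± 0.29 and differed by 0.17, 0.12 and 0.20. JAK2 and IFNGR1 differed by 0.14 and 0.12 over the 3 groups.

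Of 19 genes of nucleic acid sensing, 0 passed in limma. At an unadjusted p under 0.05, 1 was higher and 2 lower with RB, 0 with SMYD2 and 2 lower with both. Of all genes 13.1%, 2.89% and 18.3% met that mark, in either direction. CGAS, the sensor of cytoplasmic DNA, read 6.86 ± 0.22 in control, 6.48 ± 0.26 with RB, 6.80 ± 0.22 with SMYD2 and 6.55 ± 0.09 with both, with adjusted p of 0.188, 0.991 and 0.239 in limma. STING1, its partner, read 6.67 ± 0.06, 6.37 ± 0.14, 6.65 ± 0.25 and 6.40 ± 0.12, with adjusted p of 0.199, 0.997 and 0.185. TLR3 and TBK1 differed by 0.15 and -0.12 over the 3 groups.

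Of 46 other interferon targets, among them guanylate-binding proteins, chemokines and antigen-processing genes, 0 passed in limma against control. At an unadjusted p under 0.05, 2 were higher with RB, 1 with SMYD2 and 6 with both, and 0 lower. Of all genes 13.1%, 2.89% and 18.3% met that mark, in either direction. Between RB plus SMYD2 and SMYD2, 1 of the 46 was higher in limma, where 7.19% of all genes passed. EPSTI1 differed by 0.53, 0.01 and 0.40 with RB, SMYD2 and both. With the replicate block it passed with RB and with both (adjusted p 0.009 and 0.029 in limma). In that fit 7.07% of all genes passed with RB and 13.0% with both. LGALS3BP differed by 0.49 with both plasmids and GBP1, a guanylate-binding protein, by -0.41. Each passed with the replicate block (adjusted p 0.025 and 0.010 in limma). In that fit 2 of the 46 were higher and 1 lower with both plasmids, against 13.0% of all genes. PLSCR1 differed by -0.25 with both. Of 21 targets of NF-kappaB, a pathway that foreign nucleic acid also starts, 0 passed in limma. At an unadjusted p under 0.05 there was 1, lower with both plasmids, where 18.3% of all genes met that mark. NFKB2, CXCL8, CXCL3 and LIF had the largest differences over the 3 groups, of which NFKB2 differed by -0.16 and CXCL8 by 0.13.

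**Figure D5:**
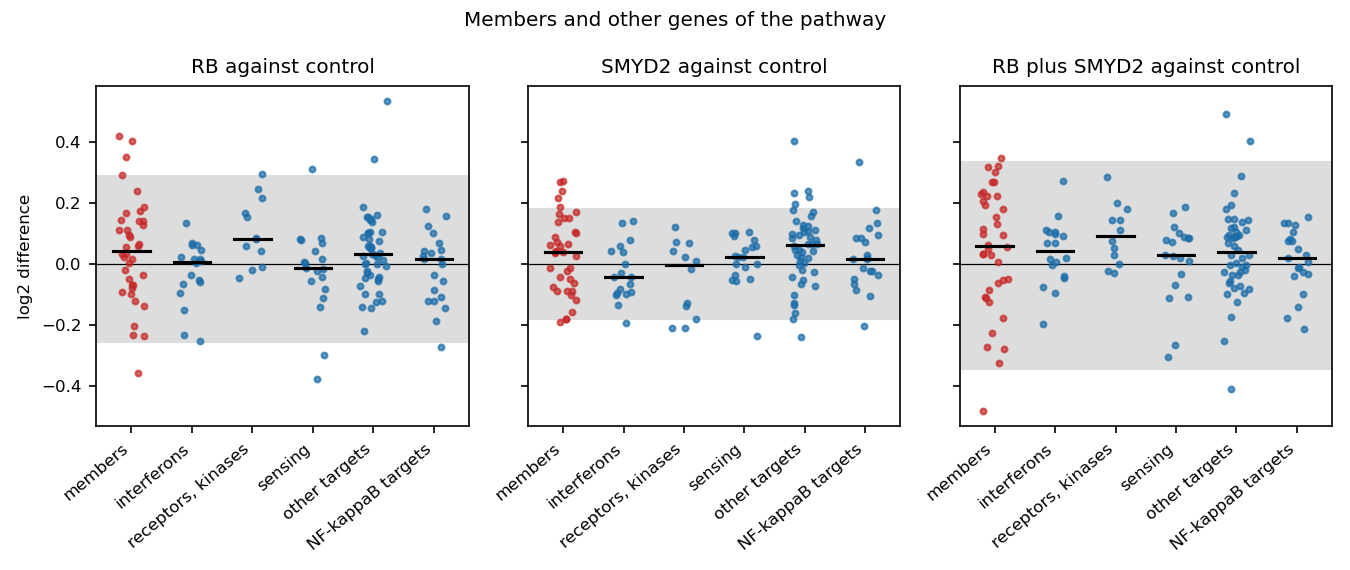
Log2 differences from control of single genes (dots) and their median (bar) for the interferon-stimulated genes and 5 lists of the pathway, in 3 panels for RB, SMYD2 and RB plus SMYD2. The grey band holds the middle 90% of all 19775 genes. The medians lie close to 0, and most dots of each list lie within the band.

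Genes whose promoter held the motif did not stand apart by their medians. With RB plus SMYD2 the median difference was 0.06 for the 22 genes with a match, 0.06 for the 8 without and 0.07 for the 8 with no entry. With RB these medians were 0.06, 0.06 and 0.02, and with SMYD2 0.04, -0.01 and 0.16. OAS3, IFI44 and PARP14, which fell, all hold the motif shown above, and IRF9, which rose, had none in its window. Of the other genes higher against control with the replicate block, IFI6 holds the motif, and HERC6 and SAMD9L had none in their windows.

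Markers of cell types were read from the same arrays, since in bulk RNA fewer cells of a type and less RNA per cell cannot be told apart. Of 10 osteoblast markers, SPARC and SPP1 rose with RB, by 0.81 and 0.83 (adjusted p 0.010 and 0.008 in limma), where 2.96% of all genes passed. With both plasmids SPARC rose by 0.79 (adjusted p 0.006), where 7.20% of all genes passed. With the replicate block 3 osteoblast markers were higher with RB, COL1A2 (0.94, adjusted p 2.05e-05 against 0.483 without the block), SPARC and SPP1, where 7.07% of all genes passed. In that fit 5 were higher with both plasmids, SP7, ALPL, COL1A2, SPARC and IBSP, where 13.0% passed, and 0 were lower. Of 11 leukocyte markers, CSF1R rose with both plasmids, from 6.52 to 6.91 (adjusted p 0.017), while PTPRC, which marks all leukocytes, read 3.77 to 3.85 in every group. The mean over leukocyte markers ran from 5.17 to 5.24 on control arrays and from 5.18 to 5.30 with both plasmids. Of 5 epithelial and 5 endothelial markers 0 passed in limma against control. At an unadjusted p under 0.05 there was 1, the endothelial TEK, higher by 0.24 with both plasmids, where 18.3% of all genes met that mark. TEK passed with the replicate block (adjusted p 0.044 in limma), where 13.0% of all genes passed. Between RB plus SMYD2 and SMYD2, 1 endothelial marker was higher in limma, where 7.19% of all genes passed. The part of the markers in the differences above was not tested.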

How the data were processed

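RNA of SAOS cells had been extracted with Trizol and cleaned on RNeasy columns, per the labels. The authors deposited log2 signals of 54675 probe sets on 16 arrays, made with RMA per the submitters' processing notes, which give no version. No source used here says whether RMA was run on the 16 arrays jointly. No pair of arrays in a group shared more than 0.0750% of values, so each counted as 1 sample.

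Of the probe sets 41097 carried 1 gene symbol in the platform annotation, 1801 carried several and 11777 none; all 38 genes matched RefSeq by Entrez number. The members and the gene lists were chosen with earlier results of these data known. All members are named; from other lists the genes named are those that passed against control or, with none, the 4 with the largest absolute difference over the 3 transfected groups.

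The whole table of 19775 genes was fitted in R 4.3.3 by limma 3.58.1 (a mean for each group by lmFit, eBayes with trend), two-sided, with Benjamini-Hochberg adjustment per comparison and a threshold of 0.05. The script was tested on simulated data first. Alternatives changed the probe set, the scaling, a filter at a mean of 5, the trend, array weights and the arrays fitted, left out each array in turn, or added the replicate number as a block. For control with each transfected group every same-numbered pair of arrays deviated together over all genes, with correlations of at least 0.188, so the replicate number was taken to pair them; this comes from the data and not from the labels. For RB with SMYD2 the lowest was -0.077, so not every same-numbered pair deviated together there. The fit with the block still covered RB against SMYD2, and that result is given only as an alternative. Largest median shift of all genes between groups was 0.02. Figures were drawn with matplotlib 3.10.9.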

Additional observations from a re-analysis of the deposited data

Results flagged for a closer look

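Each of the 38 genes was checked in each group of 4 arrays for 1 array far from the others, by Dixon's ratio of the gap to the range against its 95% critical value of 0.829. Of 152 checks, 14 passed that value, and chance alone gives about 1 in 20. SMYD2 array 1, which had the largest ACTB 3' to 5' difference, was the highest of its group for ISG15 (12.10) and OAS3 (8.31) and the lowest for IRF1 (7.93) and TRIM22 (3.56). SMYD2 array 3 was the highest for SAMD9 (8.13) and SAMD9L (6.78). Among the RB arrays, number 3 was the lowest for IFIT2 (6.86) and the highest for OAS2 (5.88) and PARP14 (9.09), where the other 3 arrays of PARP14 agreed within 0.01. RB array 5 was the highest for IFI44L (5.26) and the lowest for OASL (5.69). With RB plus SMYD2, array 5 was the highest for ISG20 (6.0) and array 3 the lowest for SAMD9 (8.07). Control array 1 was the lowest for MX2 (5.32).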

How the results depend on the processing

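SMYD2 against control, RB plus SMYD2 against RB and the interaction gave 0 of 38 genes under every alternative run. No called gene changed sign. Medians of the 38 genes between transfected groups lay close to 0 and changed sign between alternatives, from -0.0424 to 0.0298 for RB against SMYD2, -0.0174 to 0.0502 for RB plus SMYD2 against RB and -0.0400 to 0.0495 for RB plus SMYD2 against SMYD2. For RB against control, with 0 genes called as reported, 1 passed among genes of mean 5 or more, 1 without the trend, 8 with array weights, 4 with the replicate block and 2 with only the arrays compared; leaving out an array gave 0 to 2, and medians of 0.0233 to 0.0976. For RB plus SMYD2 against control, with 4 as reported, 1 passed with the mean of all probe sets of a gene, 2 after another quantile normalization, 9 with array weights and 7 with the replicate block; leaving out an array gave 1 to 4. For the mean of the 3 groups, with 0 as reported, 1 passed among genes of mean 5 or more, 5 with array weights and 1 with the replicate block; leaving out an array gave 0 to 2. For RB against SMYD2, with 1 as reported, 0 passed with the mean of probe sets or only the arrays compared, 5 with array weights and 3 with the replicate block; leaving out an array gave 0 to 2. For RB plus SMYD2 against SMYD2, with 2 as reported, 1 passed with arrays centred or only the arrays compared, 8 with array weights (median 0.0495) and 5 with the replicate block; leaving out an array gave 1 to 3. The median of the interaction also changed sign, from -0.0777 to 0.0168 when an array was left out. Over all genes the counts ran from 286 to 2296 for RB, 899 to 3687 for RB plus SMYD2 and 205 to 1968 for the mean of the 3 groups, against 585, 1424 and 494 as reported. For RB against SMYD2 they ran from 193 to 1831, and for RB plus SMYD2 against SMYD2 from 748 to 3141, against 642 and 1422 as reported. As the calls over all genes vary this much, the counts above are not read as a result about the 38 genes. The causes were not tested. A signal near 4 or 5 cannot be told from background in RMA values, which limits IFI44L, IFIH1, OAS1, RSAD2, XAF1 and TRIM22.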
